A study of Homo sapiens with 30 samples.

Results

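The genes described here are 45 genes of the G1/S transition and of DNA replication, picked by symbol, out of a table of 24895 entries. All 45 were found in the table. The members were grouped by role into 8 groups: the MCM2 to MCM7 helicase, origin licensing, the partners of the helicase, the sliding clamp and its loader, polymerases and primase, fork and repair factors, nucleotide supply, and G1/S regulators with the S phase checkpoint. The expression of each was measured by RNA-seq in PANC-1 and MiaPaCa2, human lines grown from pancreatic ductal adenocarcinoma, in 10 groups of 3 libraries each. Cells of each line were transfected with an siRNA against DDX60L (siDDX60L), MYEOV (siMYEOV), KCNN4 (siKCNN4) or S100A16 (siS100A16), or with a control siRNA (siControl), so that all 30 libraries come from transfected cells. The knockdowns are transient, and those of DDX60L and MYEOV rest on 1 siRNA sequence each. Values are FPKM, which relate the fragments of a gene to its length and to all that mapped in the library. Fold changes are on the scale of log2(FPKM + 1), and the error after ± is a standard error (SE) unless SD is written. A gene is said to have risen or fallen (was called) where the adjusted p of limma's moderated test was below 0.05 and the log2 fold change was at least 0.5 in size. The labels do not say whether the 3 libraries of a group are separate cultures, so p values cover only how much these libraries vary, which may be technical.

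In G1 phase the origin recognition complex (ORC), CDC6 and CDT1 load the MCM2 to MCM7 complex onto DNA, which is called origin licensing, and in S phase CDC45 and the GINS complex join it to form the active helicase. Cyclin E and its kinase release E2F transcription factors from the retinoblastoma protein, and E2F factors drive the transcription of most genes named here. Cultured carcinoma cells that divide express them all. In RNA from whole cultures, fewer cells in S phase and less of these RNAs per cell cannot be told apart.

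Each targeted gene was lower in its own knockdown. DDX60L was at 0.371 to 0.861 FPKM after siDDX60L and 1.06 to 1.52 FPKM in siControl in PANC-1, and at 0.187 to 0.233 against 1.70 to 2.24 FPKM in MiaPaCa2. MYEOV was at 9.14 to 10.7 FPKM after siMYEOV and 23.2 to 25.0 FPKM in siControl in PANC-1, and at 0.155 to 0.190 against 0.691 to 0.985 FPKM in MiaPaCa2, where it was barely expressed before knockdown. No library of a knockdown group overlapped siControl for its target, KCNN4 and S100A16 included. The FPKM of a library summed to 375091 to 407738 in PANC-1 and 395879 to 416201 in MiaPaCa2. The epithelial keratins KRT8, KRT18 and KRT19 were at 52.1 FPKM or more in every library, while the epithelial marker EPCAM was listed at 0 in 11 of the 15 MiaPaCa2 libraries. The T cell marker CD3E, the acinar enzyme PRSS1 and, in MiaPaCa2, the leukocyte marker PTPRC were listed at 0 in all libraries. Other genes listed as markers of leukocytes, fibroblasts or endothelium were not: CD68 was at 29.3 to 84.5 FPKM in PANC-1 and 8.08 to 16.4 FPKM in MiaPaCa2, and the collagen COL1A1 at 5.44 to 11.4 FPKM in PANC-1. In MiaPaCa2 the collagen COL1A2 was at 14.2 to 68.7 FPKM, LYZ reached 5.87 FPKM and CDH5 reached 3.37 FPKM. The part of other cells in the results was not tested.

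The siRNA sequences are shown because a guide strand can also lower RNAs that match its seed, bases 2 to 8, which stand in capitals. The strands were read from the study's list of siRNAs, and each guide is the reverse complement of the listed strand. The sequences of the siRNAs against KCNN4 and S100A16 were not used here.
siDDX60L guide: aTGACTCGagaacaagctc
siMYEOV guide: cTGAACTTgcgtgtcctcc
A 7-base match to the siDDX60L seed (CGAGTCA) was found in the coding sequence of 5 of the 45 members (11.1%), against 4.49% of 11969 tested genes with an annotated transcript, and in the 3′ UTR of 1 member (2.22%), against 1.67%. A match to the siMYEOV seed (AAGTTCA) was found in the coding sequence of 13 members (28.9%), against 16.5% of the same genes, and in the 3′ UTR of 3 (6.67%), against 13.4%. TYMS, which fell most after siDDX60L, had no match to that seed in its canonical transcript. Of the 6 members with a match to the siDDX60L seed, RRM1 and E2F2 rose after siDDX60L in PANC-1 and MCM6 fell in MiaPaCa2. Of the 16 with a match to the siMYEOV seed, 4 fell after siMYEOV in PANC-1 and 5 in MiaPaCa2, and the others were not called. Over all 45 members, 13 fell after siMYEOV in PANC-1 and 9 in MiaPaCa2, beside 15.1% and 10.4% of genes tested. After siDDX60L 15 of the 45 rose and 1 fell in PANC-1, beside 10.2% and 7.34% of genes tested. In MiaPaCa2 8 rose and 4 fell after siDDX60L, beside 8.77% and 7.28%. Calls among all tested genes that hold a match were not counted. The matches of the members called after the same siRNA, except that of CHEK1, which crosses a splice junction, are shown with 12 bases before and 3 after, in GRCh37 coordinates of the match in capitals. A match is a description of the letters and does not show that the guide bound there. Only 7-base matches to the guide seed in the canonical transcript were searched. The lack of a match therefore does not show that the siRNA left that RNA alone.
MCM6, siDDX60L match in the coding sequence, exon 16 of 17, chr2:136602241-136602247, minus strand: agaagaagaggaCGAGTCAgca
RRM1, siDDX60L match in the coding sequence, exon 2 of 19, chr11:4123237-4123243, plus strand: ggccgccaagaaCGAGTCAtgt
E2F2, siDDX60L match in the coding sequence, exon 3 of 7, chr1:23848463-23848469, minus strand: ttacctcctgagCGAGTCAgag
E2F2, siMYEOV match in the coding sequence, exon 3 of 7, chr1:23848483-23848489, minus strand: ctgctcaccaagAAGTTCAttt
MCM2, siMYEOV match in the coding sequence, exon 14 of 16, chr3:127339694-127339700, plus strand: atagacacacagAAGTTCAgcg
MCM2, siMYEOV match in the coding sequence, exon 16 of 16, chr3:127340569-127340575, plus strand: ttcaggatgaacAAGTTCAgcc
RFC3, siMYEOV match in the coding sequence, exon 9 of 9, chr13:34410394-34410400, plus strand: gcactttataagAAGTTCAtgg
POLD3, siMYEOV match in the 3′ UTR, exon 12 of 12, chr11:74351889-74351895, plus strand: cacttactatgtAAGTTCAtct
POLE2, siMYEOV match in the coding sequence, exon 12 of 19, chr14:50121734-50121740, minus strand: atggaaaaaatcAAGTTCAagc
RRM2, siMYEOV match in the coding sequence, exon 5 of 10, chr2:10264863-10264869, plus strand: gatttagccaagAAGTTCAgat

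Promoter windows from RefSeq (GRCh38.p14), of 250 bases before to 50 after a gene start, were found for 39 of the 45 members, 53 windows in all. The E2F motif, searched as TTTCCCGC, TTTGGCGC, TTTCGCGC and TTTGCCGC on both strands, with overlapping matches each counted, was in 24 of the 53 windows (45.3%), against 3.31% of all 35116 windows and 4.95% of the windows of genes tested. By gene, 23 of the 39 members (59.0%) held it in at least 1 window, against 6.76% of 9624 tested genes. The CCAAT box (CCAAT on either strand) was in 24 of the 39 members (61.5%), against 43.3%. The stretches shown run from 80 bases before to 20 after the start, with the motif in capitals. They are those of members called in both lines after siDDX60L or after siMYEOV, or in opposite directions after these in a line. Members under this rule whose stretch holds no match are not shown. RFC3, outside this rule, also has a match in that stretch, which starts at −55 from the start. So do CDC6, CDT1, CLSPN, GINS1, GINS3, GMNN, PCNA, POLA2, POLE and POLE2, which are likewise outside the rule.
E2F1, chr20:33686366-33686465, minus strand: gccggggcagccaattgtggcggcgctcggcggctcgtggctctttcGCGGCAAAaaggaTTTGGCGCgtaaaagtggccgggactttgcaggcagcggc
E2F2, chr1:23531214-23531313, minus strand: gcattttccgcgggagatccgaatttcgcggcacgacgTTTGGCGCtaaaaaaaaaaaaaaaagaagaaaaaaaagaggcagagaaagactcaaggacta
MCM2, chr3:127598331-127598430, plus strand: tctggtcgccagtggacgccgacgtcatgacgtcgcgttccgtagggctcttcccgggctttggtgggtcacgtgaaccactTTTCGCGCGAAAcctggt
MCM3, chr6:52284723-52284822, minus strand: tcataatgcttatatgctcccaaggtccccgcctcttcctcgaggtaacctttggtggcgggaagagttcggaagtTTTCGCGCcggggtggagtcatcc
MCM7, chr7:100101378-100101477, minus strand: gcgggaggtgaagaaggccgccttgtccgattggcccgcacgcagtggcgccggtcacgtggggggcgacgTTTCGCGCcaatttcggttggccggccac
GINS2, chr16:85688935-85689034, minus strand: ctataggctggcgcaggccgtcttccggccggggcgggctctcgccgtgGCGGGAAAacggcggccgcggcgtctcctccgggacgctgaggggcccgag
UNG, chr12:109098092-109098191, plus strand: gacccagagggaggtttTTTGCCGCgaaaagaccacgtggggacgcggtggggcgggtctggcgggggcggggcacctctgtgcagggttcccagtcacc
UHRF1, chr19:4909421-4909520, plus strand: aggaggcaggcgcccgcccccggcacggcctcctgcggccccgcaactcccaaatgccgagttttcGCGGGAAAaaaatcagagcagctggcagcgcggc
TYMS, chr18:657573-657672, plus strand: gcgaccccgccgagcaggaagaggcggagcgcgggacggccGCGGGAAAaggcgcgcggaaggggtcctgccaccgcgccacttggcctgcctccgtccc
The motif was thus present both in members that rose after siDDX60L, such as E2F1, MCM3, GINS2 and UNG, and in TYMS, which fell. CDC6, GINS1, GMNN, POLA1, POLA2 and POLE, never called against siControl after any siRNA in either line, held it in a window too. FEN1 and RFC4, also never called, did not. Of the members under the same rule, CDC45, PRIM1 and ORC1 held no match in their windows. MCM4, GINS4, POLD3 and CCNE2, also described below, had no window in the table, like MCM5 and RPA2.

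After siDDX60L most of the called members were higher than in siControl in both lines. In PANC-1 15 of the 45 members rose and 1 fell, beside 10.2% and 7.34% of the 12513 genes tested. Of all calls there 58.1% were higher, or 43.4% with FPKM rescaled by the median of ratios. Under that rescaling GINS2, ORC1 and UNG lost their call in PANC-1. The median log2 fold change of the members was 0.39, beside 0.07 over all genes tested, and the 3 siDDX60L libraries lay above all 3 siControl libraries for 32 members and below them for 3. How many of all genes tested stood apart in this way was not counted. In MiaPaCa2 8 members rose and 4 fell, beside 8.77% and 7.28% of the 11875 genes tested, and the median was 0.18 beside 0.05. With the median of ratios 5 rose and 4 fell there, and 44.7% rather than 54.6% of all calls were higher. Of 20 mitosis genes (such as CCNB1 and AURKA) 3 rose and 17 were not called in PANC-1, and 1 rose and 19 were not called in MiaPaCa2. After siMYEOV the called members were nearly all lower. In PANC-1 0 members rose and 13 fell, beside 14.3% and 15.1% of the genes tested, with a median of −0.32 beside 0.04. By limma at an unadjusted p below 0.05, 3 members were above siControl there, ORC6 (0.42), GINS3 (0.34) and RRM1 (0.33), each short of the fold threshold. In MiaPaCa2 1 member rose and 9 fell, beside 16.3% and 10.4%, with a median of −0.13 beside 0.11. Among all genes tested in MiaPaCa2, 61.0% of the calls after siMYEOV were higher, or 47.3% with FPKM rescaled by the median of ratios, under which 0 members rose. Of the 20 mitosis genes 1 rose and 3 fell in PANC-1 and 2 rose and 2 fell in MiaPaCa2 after siMYEOV. After siKCNN4 8 of them fell in PANC-1, and 1 rose and 2 fell in MiaPaCa2. After siS100A16 8 fell in PANC-1, and 1 rose and 6 fell in MiaPaCa2.

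**Figure D1:**
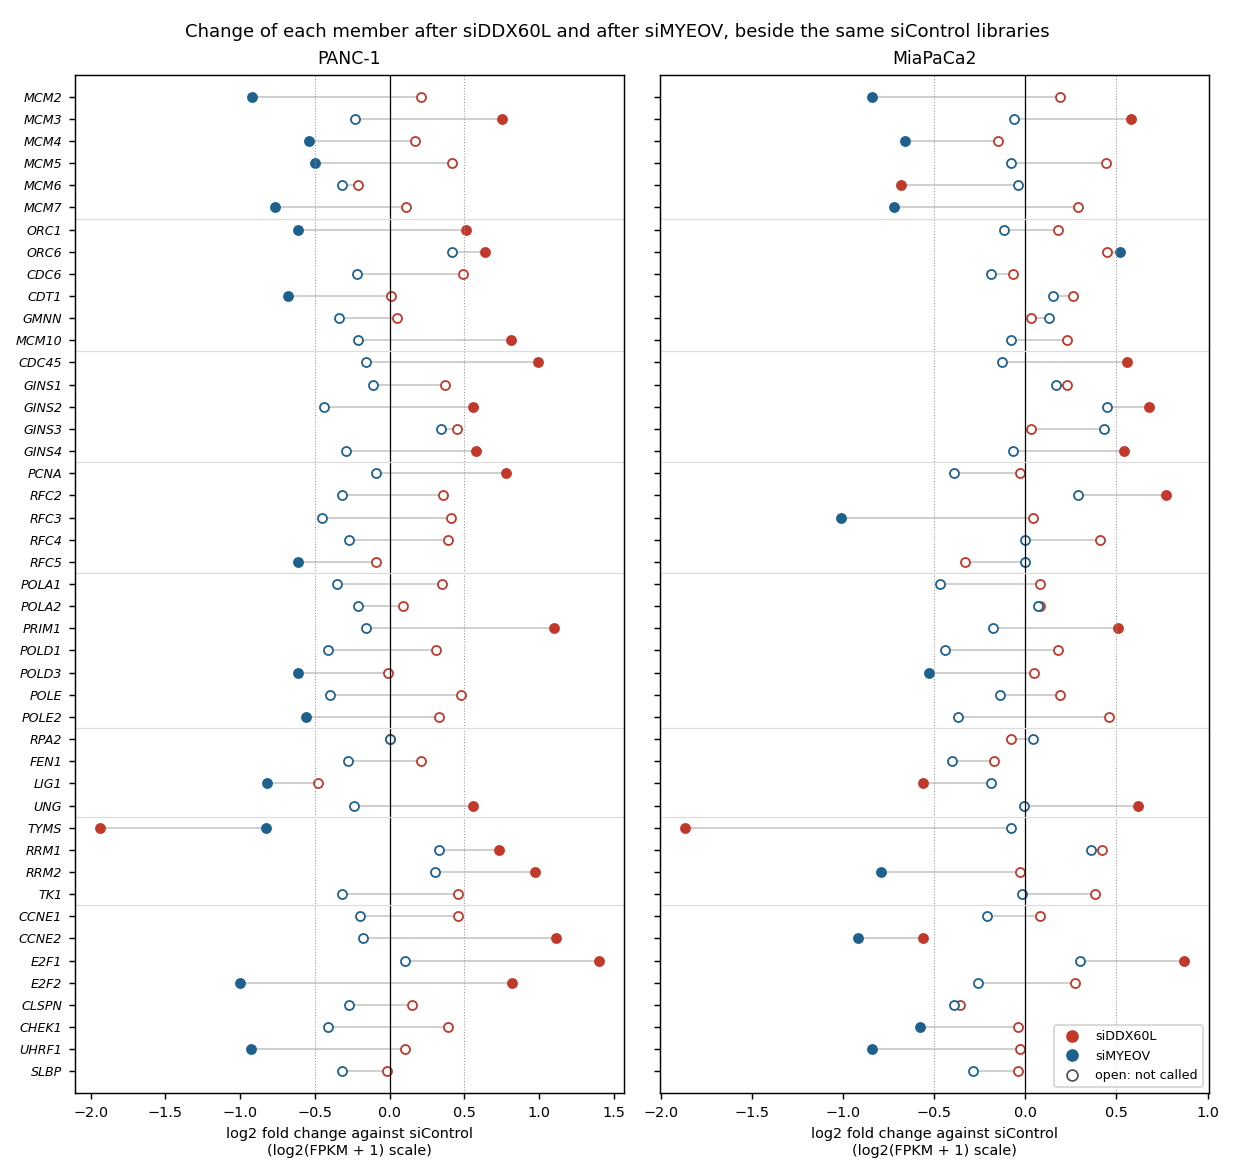
Log2 fold change against siControl (x axis) of each of the 45 members (rows, by role, separated by lines) after siDDX60L (red) and after siMYEOV (blue) in PANC-1 (left) and MiaPaCa2 (right). Filled points were called and open points were not; both siRNAs are set against the same siControl libraries, and TYMS stands alone at the left with −1.94 in PANC-1 and −1.87 in MiaPaCa2 after siDDX60L.

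Set side by side, 33 of the 45 members in PANC-1 were above siControl after siDDX60L and below it after siMYEOV, and 19 of 45 in MiaPaCa2. These counts take in changes that were not called, and the same pattern was not counted over all genes tested. Both effects use the same siControl libraries, so a high or low siControl value moves both. The direct comparison of siDDX60L with siMYEOV does not use them. In PANC-1 32 members were higher after siDDX60L than after siMYEOV and 1 was lower, beside 14.7% and 9.08% of all genes tested, with a median of 0.71 beside 0.03. In MiaPaCa2 19 were higher and 2 were lower, beside 9.84% and 12.6%, with a median of 0.36 beside −0.05. All 19 members higher in MiaPaCa2 were among the 32 in PANC-1, and TYMS was lower in both lines. The direct difference came from different sides in different members. In PANC-1, 2 of the 32 were called in both comparisons with siControl, 11 were called higher after siDDX60L only, 9 lower after siMYEOV only, and 10 in neither.

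The MCM2 to MCM7 helicase, which unwinds DNA at the fork, split between its subunits. MCM3 was the subunit that rose after siDDX60L. MCM3 in PANC-1 had 61.7, 65.9 and 63.6 FPKM after siDDX60L, 29.3, 32 and 34.9 FPKM after siMYEOV, and 37.7, 38.2 and 36.8 FPKM in siControl. MCM3 in MiaPaCa2 had 90.4, 90.7 and 89.2 FPKM after siDDX60L, 57.3, 55.9 and 59.7 after siMYEOV, and 57.5, 61.3 and 61.2 in siControl. The siDDX60L libraries stood clear of both other groups in each line (0.75 ± 0.062, adjusted p = 8.7e-07 in PANC-1; 0.58 ± 0.037, adjusted p = 7.9e-08 in MiaPaCa2). MCM2, MCM4 and MCM7 showed the other pattern, with a fall after siMYEOV in both lines and no call after siDDX60L. MCM2 had 42.3, 39.4 and 38.8 FPKM after siDDX60L, 17.6, 17.9 and 17.6 after siMYEOV, and 33.6, 34.1 and 35.7 in siControl in PANC-1. MCM2 in MiaPaCa2 had 98.7, 104 and 106 FPKM after siDDX60L, 47.1, 51.8 and 50.8 after siMYEOV, and 83.9, 95.3 and 90.6 in siControl. No 2 of these groups overlapped, and the fall after siMYEOV left about 51.3% of the siControl mean in PANC-1 and 55.5% in MiaPaCa2 (−0.92 ± 0.043, adjusted p = 2.5e-09 and −0.84 ± 0.051, adjusted p = 2.5e-08).

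MCM7 had 50.7, 52.0 and 51.4 FPKM after siMYEOV and 86.0, 90.7 and 87.9 FPKM in siControl in PANC-1 (−0.77 ± 0.044, adjusted p = 1.3e-08). MCM7 in MiaPaCa2 had 86.1, 87.4 and 87.1 FPKM after siMYEOV and 134, 150 and 149 FPKM in siControl (−0.72 ± 0.042, adjusted p = 1.7e-08). After siDDX60L it stood at 100, 95.5 and 91.1 FPKM in PANC-1 and 173, 180 and 176 FPKM in MiaPaCa2, above every siControl library but under the fold threshold (0.11 and 0.29). MCM4 had 25.7, 24.2 and 23.3 FPKM after siMYEOV and 35.8, 38.1 and 34.3 FPKM in siControl in PANC-1 (−0.54 ± 0.068, adjusted p = 1.5e-05), and 55.6, 58.8 and 50.9 against 84.3, 89.1 and 88.7 FPKM in MiaPaCa2 (−0.66 ± 0.13, adjusted p = 0.0009). Both subunits were thus lower after siMYEOV in every library. MCM4 after siDDX60L had 42.5, 41.0 and 38.5 FPKM in PANC-1 and 75.8, 76.3 and 83.4 FPKM in MiaPaCa2, on opposite sides of siControl and not called (0.17 and −0.15). MCM5 was called after siMYEOV in PANC-1 at −0.50, a call that ended without siControl replicate 2 (−0.48) or siMYEOV replicate 2 (−0.49).

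MCM6 was the subunit that fell after siDDX60L, in MiaPaCa2. MCM6 in MiaPaCa2 had 31.2, 29.0 and 30.3 FPKM after siDDX60L, 47.0, 48.0 and 47.5 after siMYEOV, and 47.5, 48.8 and 50.1 in siControl. It fell after siDDX60L to 61.8% of the siControl mean (−0.68 ± 0.044, adjusted p = 8e-08), while the siMYEOV libraries overlapped siControl. MCM6 in PANC-1 had 14.6, 16.6 and 15.8 FPKM after siDDX60L, 14.8, 14 and 14.6 after siMYEOV, and 18, 18.7 and 18.1 in siControl, below siControl in both knockdowns without a call (−0.21 and −0.32).

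Of the licensing factors, ORC1, the largest ORC subunit, was called in opposite directions in PANC-1. It had 8.07, 8.53 and 8.48 FPKM after siDDX60L, 3.72, 2.98 and 3.24 after siMYEOV, and 5.35, 5.76 and 5.63 in siControl. The 3 groups did not overlap, with 0.51 ± 0.062 after siDDX60L (adjusted p = 2.3e-05) and −0.61 ± 0.062 after siMYEOV (adjusted p = 2.4e-06). The rise is at the threshold: it was 0.44 with FPKM rescaled by the median of ratios, 0.48 without siControl replicate 1, 0.49 without siDDX60L replicate 2 and 0.50, just short of it, without siDDX60L replicate 3. In MiaPaCa2 ORC1 had 14.1, 14.6 and 14.2 FPKM after siDDX60L, 10.9, 11.5 and 11.8 after siMYEOV, and 11.5, 13.3 and 12.7 in siControl, with no call (0.18 and −0.12). MCM10, which helps to activate the loaded helicase, rose after siDDX60L in PANC-1 (0.81), as did ORC6, another ORC subunit (0.64). ORC6 was also the only member that rose after siMYEOV in MiaPaCa2 (0.52), a call that ended without siControl replicate 2 (0.49) and with the median of ratios (0.42). CDT1, the loading factor, fell after siMYEOV in PANC-1 (−0.68) and stood at 0.15 in MiaPaCa2. CDC6 and GMNN, the inhibitor of CDT1, were not called after either siRNA in either line.

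Of the 5 partners of the helicase, CDC45, GINS2 and GINS4 rose after siDDX60L in both lines, and all 5 were at positive values. CDC45 had 15.5, 16.4 and 15.2 FPKM after siDDX60L, 7.06, 6.33 and 6.17 after siMYEOV, and 7.57, 7.34 and 7.22 in siControl in PANC-1. CDC45 in MiaPaCa2 had 32.6, 30.5 and 28.9 FPKM after siDDX60L, 17.4, 17.3 and 21.8 after siMYEOV, and 18.7, 20.1 and 23.0 in siControl. Of these 3 groups siDDX60L was the highest in each line (0.99 ± 0.067, adjusted p = 1.4e-07 in PANC-1; 0.56 ± 0.099, adjusted p = 0.00051 in MiaPaCa2), though the MiaPaCa2 value was 0.49 without siControl replicate 1 and 0.50, just short of the threshold, with the median of ratios. GINS2 had 5.06, 5.63 and 5.50 FPKM after siDDX60L, 1.76, 2.86 and 2.06 after siMYEOV, and 3.22, 3.45 and 3.35 in siControl in PANC-1. GINS2 in MiaPaCa2 had 22.9, 22.5 and 23.0 FPKM after siDDX60L, 18.4, 19.8 and 19.8 after siMYEOV, and 14.4, 13.7 and 13.5 in siControl. GINS2 was therefore above siControl after both siRNAs in MiaPaCa2 (0.68 ± 0.043, called, and 0.45 ± 0.043, not called), and on opposite sides of it in PANC-1 (0.56 ± 0.10, called, and −0.44 ± 0.10, not called; 0.49 after siDDX60L with the median of ratios).

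GINS4 had 3.13, 4.26 and 3.64 FPKM after siDDX60L, 1.77, 1.33 and 1.54 after siMYEOV, and 2.66, 1.56 and 2.22 in siControl in PANC-1. GINS4 in MiaPaCa2 had 10, 11.3 and 12.8 FPKM after siDDX60L, 7.14, 8.23 and 6.07 after siMYEOV, and 7.48, 7.08 and 7.95 in siControl. Of these 3 groups siDDX60L was the highest in both lines (0.58 ± 0.13, adjusted p = 0.0019 and 0.54 ± 0.10, adjusted p = 0.00074). The call ended in PANC-1 without siControl replicate 2 (0.44) or siDDX60L replicate 2 (0.49), and in MiaPaCa2 without siDDX60L replicate 3 (0.45) or with the median of ratios (0.48). GINS1 and GINS3 were not called after either siRNA.

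PCNA, the sliding clamp that holds polymerases on DNA, rose after siDDX60L in PANC-1 (0.78 ± 0.060, adjusted p = 4.7e-07, at a mean of 119 FPKM against 69.1 FPKM in siControl) but stood at −0.03 in MiaPaCa2. Of the clamp loader subunits, RFC2 rose after siDDX60L in MiaPaCa2, where it had 53.4, 38.5 and 37.5 FPKM after siDDX60L, 26.2, 31.7 and 32.7 after siMYEOV, and 22.8, 25.2 and 25.4 in siControl (0.77 ± 0.15, adjusted p = 0.00091). Its first siDDX60L library was far above the other 2, and all 3 were above both other groups. In PANC-1 RFC2 had 25.0, 28.9 and 19.6 FPKM after siDDX60L, 14.8, 16 and 13.4 after siMYEOV, and 18.2, 20 and 17.7 in siControl, where siDDX60L and siControl overlapped. RFC3 gave the largest fall of a member after siMYEOV in MiaPaCa2 on the log2(FPKM + 1) scale, though CCNE2 was at 46.1% of its siControl mean and RFC3 at 48.4%. RFC3 had 38.2, 47.3 and 37.9 FPKM after siDDX60L, 17.4, 19.9 and 20.4 after siMYEOV, and 40.4, 38.1 and 40.6 in siControl (−1.01 ± 0.078 after siMYEOV, adjusted p = 2.2e-07). In PANC-1 RFC3 had 15.1, 16.8 and 18 FPKM after siDDX60L, 9.55, 8.46 and 8.12 after siMYEOV, and 11.8, 12.8 and 12.2 in siControl. These 3 groups did not overlap, yet neither change passed the fold threshold (0.41 and −0.45), while the direct difference did (0.86 ± 0.072). RFC5 fell after siMYEOV in PANC-1 (−0.61), and RFC4 was not called against siControl after either siRNA.

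PRIM1, the catalytic subunit of primase that starts each new strand, was the member of its group that rose after siDDX60L. PRIM1 in PANC-1 had 21.7, 21.5 and 21.1 FPKM after siDDX60L, 9.52, 8.31 and 7.49 after siMYEOV, and 8.73, 9.78 and 9.96 in siControl. PRIM1 in MiaPaCa2 had 17.3, 16.6 and 16.4 FPKM after siDDX60L, 8.85, 10.9 and 10.3 after siMYEOV, and 11.5, 11.1 and 11.8 in siControl. The siDDX60L libraries reached 226% of the siControl mean in PANC-1 and 146% in MiaPaCa2 (1.1 ± 0.081, adjusted p = 3e-07 and 0.51 ± 0.078, adjusted p = 0.00016). The MiaPaCa2 value was 0.46 with the median of ratios and 0.49 without siControl replicate 2 or siDDX60L replicate 1. The span of PRIM1 overlaps that of NACA on the same strand over 1191 bases, a gene at a mean of 188 FPKM in PANC-1 and 136 FPKM in MiaPaCa2. Only whole gene spans were compared, so whether reads were shared in that stretch is not known. POLD3, a subunit of DNA polymerase delta, showed the siMYEOV pattern. It had 11.8, 13.4 and 12.6 FPKM after siDDX60L, 7.66, 7.87 and 8.32 after siMYEOV, and 12.5, 12 and 13.5 in siControl in PANC-1. POLD3 in MiaPaCa2 had 12.9, 13.7 and 12.9 FPKM after siDDX60L, 8.28, 8.81 and 8.46 after siMYEOV, and 12.6, 12.2 and 13.4 in siControl. Only the siMYEOV libraries stood apart (−0.61 ± 0.063, adjusted p = 2.9e-06 and −0.53 ± 0.061, adjusted p = 9.1e-06), and the MiaPaCa2 value fell just short of the threshold (−0.50) without siControl replicate 3. POLE2, a subunit of polymerase epsilon, fell after siMYEOV in PANC-1 (−0.56). POLA1, POLA2, POLD1 and POLE were not called against siControl after either siRNA, at −0.47 to 0.48.

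Among fork and repair factors, UNG, the glycosylase that removes uracil from DNA, rose after siDDX60L in both lines. It had 35.5, 34.2 and 36.9 FPKM after siDDX60L, 21.2, 19.0 and 19.8 after siMYEOV, and 23.2, 23.7 and 24.4 in siControl in PANC-1 (0.56 ± 0.046, adjusted p = 8.7e-07; 0.48 with the median of ratios). UNG in MiaPaCa2 had 49.2, 49.6 and 47.1 FPKM after siDDX60L, 29.9, 31.5 and 31.7 after siMYEOV, and 31.7, 31.3 and 31.0 in siControl (0.62 ± 0.050, adjusted p = 6.5e-07). The span of UNG overlaps that of ACACB on the same strand over 10139 bases. ACACB was at a mean of 3.26 FPKM in PANC-1 and 3.62 FPKM in MiaPaCa2, and whether reads were shared is not known. LIG1, the ligase that joins Okazaki fragments, was below siControl after both siRNAs in both lines. LIG1 in PANC-1 had 8.84, 7.53 and 7.87 FPKM after siDDX60L, 6.13, 6.15 and 6.33 after siMYEOV, and 11.6, 11.8 and 11.6 in siControl. LIG1 in MiaPaCa2 had 13.1, 13.1 and 12.9 FPKM after siDDX60L, 17.2, 17.5 and 16.9 after siMYEOV, and 20.5, 19.8 and 18.9 in siControl. The call fell on a different siRNA in each line: siMYEOV in PANC-1 (−0.82 ± 0.054, adjusted p = 5e-08, beside −0.48 after siDDX60L) and siDDX60L in MiaPaCa2 (−0.56 ± 0.046, adjusted p = 7.4e-07, beside −0.19 after siMYEOV). RPA2, of the single-strand binding complex, and the flap endonuclease FEN1 were not called after either.

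TYMS, thymidylate synthase, which makes the thymidine nucleotide for DNA, fell after siDDX60L in both lines, where most members were above siControl, called or not. It was also among the 13 members that fell after siMYEOV in PANC-1, where 39 of the 45 were below siControl, called or not. TYMS in PANC-1 had 14.6, 16.2 and 16.8 FPKM after siDDX60L, 34.6, 34.7 and 36.8 after siMYEOV, and 65.7, 60.6 and 64.1 in siControl. TYMS in MiaPaCa2 had 28.3, 26.7 and 28.0 FPKM after siDDX60L, 92.1, 104 and 101 after siMYEOV, and 101, 112 and 99.5 in siControl. After siDDX60L it was at 25.0% of the siControl mean in PANC-1 and 26.6% in MiaPaCa2 (−1.94 ± 0.066 and −1.87 ± 0.066, adjusted p = 5e-10 in each), and after siMYEOV at 55.7% in PANC-1 (−0.83 ± 0.066, adjusted p = 2.5e-07) while it overlapped siControl in MiaPaCa2. TYMS also fell after siKCNN4 in PANC-1, at −0.77 to −0.67 over the alternatives run. It was not called after siKCNN4 in MiaPaCa2, nor after siS100A16 in either line. TYMS is at chr18:657653-673578 on the plus strand (GRCh37) and shares 3261 bases with ENOSF1 on the opposite strand. The study's methods name a stranded library kit while the labels name a TruSeq RNA kit, and whether counting used the strand is not given in the sources used here, so it is not known whether reads in the shared stretch were told apart. ENOSF1 had 9.15, 13.7 and 9.13 FPKM after siDDX60L and 9.07, 8.41 and 8.28 FPKM in siControl in PANC-1, and 13.4, 10.8 and 11.3 against 14.7, 13.3 and 15 FPKM in MiaPaCa2, with no call (0.26 and −0.26). In each siControl group TYMS was thus several times the level of ENOSF1, and only TYMS was called after siDDX60L.

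RRM2, the regulated subunit of ribonucleotide reductase, had the widest spread of a member within a group, a coefficient of variation of 35.9% in MiaPaCa2 siControl. RRM2 in PANC-1 had 62.5, 82.7 and 64.6 FPKM after siDDX60L, 37.4, 44.3 and 48.3 after siMYEOV, and 29.7, 36.9 and 38.6 in siControl. It rose after siDDX60L there (0.97 ± 0.16, adjusted p = 0.00024). RRM2 in MiaPaCa2 had 95.4, 83.8 and 108 FPKM after siDDX60L, 69.3, 65.0 and 38.9 after siMYEOV, and 88.7, 73.1 and 142 in siControl. The called fall after siMYEOV in MiaPaCa2 (−0.79 ± 0.24, adjusted p = 0.013) ended without siControl replicate 3 (−0.52, adjusted p = 0.062) or siMYEOV replicate 3 (−0.53, adjusted p = 0.064). RRM1, the large subunit of the same enzyme, rose after siDDX60L in PANC-1 (0.73 ± 0.11), with 0.42 in MiaPaCa2. TK1, thymidine kinase, was not called against siControl after either siRNA.

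E2F1 gave the largest rise of any member after siDDX60L in both lines. It had 39.3, 35.4 and 35.3 FPKM after siDDX60L, 14.4, 14.3 and 14 after siMYEOV, and 13.1, 13.0 and 13.6 in siControl in PANC-1. E2F1 in MiaPaCa2 had 31.2, 31.4 and 31.4 FPKM after siDDX60L, 22.4, 20.9 and 19.0 after siMYEOV, and 16.6, 16.6 and 16.8 in siControl. The siDDX60L libraries were at 277% and 188% of the siControl mean (1.40 ± 0.047, adjusted p = 5e-10 in PANC-1; 0.87 ± 0.055, adjusted p = 6.6e-08 in MiaPaCa2), and the siMYEOV libraries were also above siControl, without a call (0.10 and 0.30). E2F2, a related activator, was called in opposite directions in PANC-1. It had 5.0, 4.79 and 4.69 FPKM after siDDX60L, 0.632, 0.583 and 0.717 after siMYEOV, and 2.31, 2.33 and 2.26 in siControl (0.82 ± 0.060, adjusted p = 3e-07 and −1.0 ± 0.060, adjusted p = 2e-08). At such low FPKM the log2 scale used understates the change, as the siMYEOV mean was 28.0% of siControl. In MiaPaCa2 E2F2 had 5.72, 5.96 and 5.52 FPKM after siDDX60L, 3.77, 3.71 and 3.54 after siMYEOV, and 4.09, 4.91 and 4.78 in siControl, in the same order without a call (0.27 and −0.26).

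CCNE2, cyclin E2, was the member called in opposite directions in the 2 lines after siDDX60L. CCNE2 in PANC-1 had 7.43, 8.45 and 9.14 FPKM after siDDX60L, 2.61, 3.02 and 2.81 after siMYEOV, and 3.20, 3.60 and 3.15 in siControl. CCNE2 in MiaPaCa2 had 4.70, 4.46 and 4.17 FPKM after siDDX60L, 2.79, 3.52 and 3.40 after siMYEOV, and 6.83, 6.85 and 7.37 in siControl. After siDDX60L it was at 251% of siControl in PANC-1 (1.11 ± 0.082, adjusted p = 3.2e-07) and 63.4% in MiaPaCa2 (−0.56 ± 0.088, adjusted p = 0.0002), and after siMYEOV it fell in MiaPaCa2 (−0.92 ± 0.088, adjusted p = 1.6e-06). INTS8 and NDUFAF6, both expressed, overlap it on the other strand by 1977 and 1146 bases, and whether reads there were told apart by strand is not known. CCNE1, cyclin E1, was not called against siControl after either siRNA. UHRF1, which carries DNA methylation over to the new strand, had 24.8, 20.9 and 20.6 FPKM after siDDX60L, 10.2, 9.96 and 10.7 after siMYEOV, and 20.7, 21.2 and 19.7 in siControl in PANC-1. UHRF1 in MiaPaCa2 had 79.7, 93.0 and 83.7 FPKM after siDDX60L, 47.8, 45.8 and 51.4 after siMYEOV, and 80.9, 93.2 and 88.5 in siControl. In both lines the siDDX60L and siControl libraries overlapped and the siMYEOV libraries lay far below them (−0.93 ± 0.069, adjusted p = 1.4e-07 and −0.84 ± 0.077, adjusted p = 1.1e-06). CHEK1, the checkpoint kinase, fell after siMYEOV in MiaPaCa2 (−0.58). CLSPN, its adaptor claspin, and SLBP, which binds histone mRNAs, were not called after either.

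**Figure D2:**
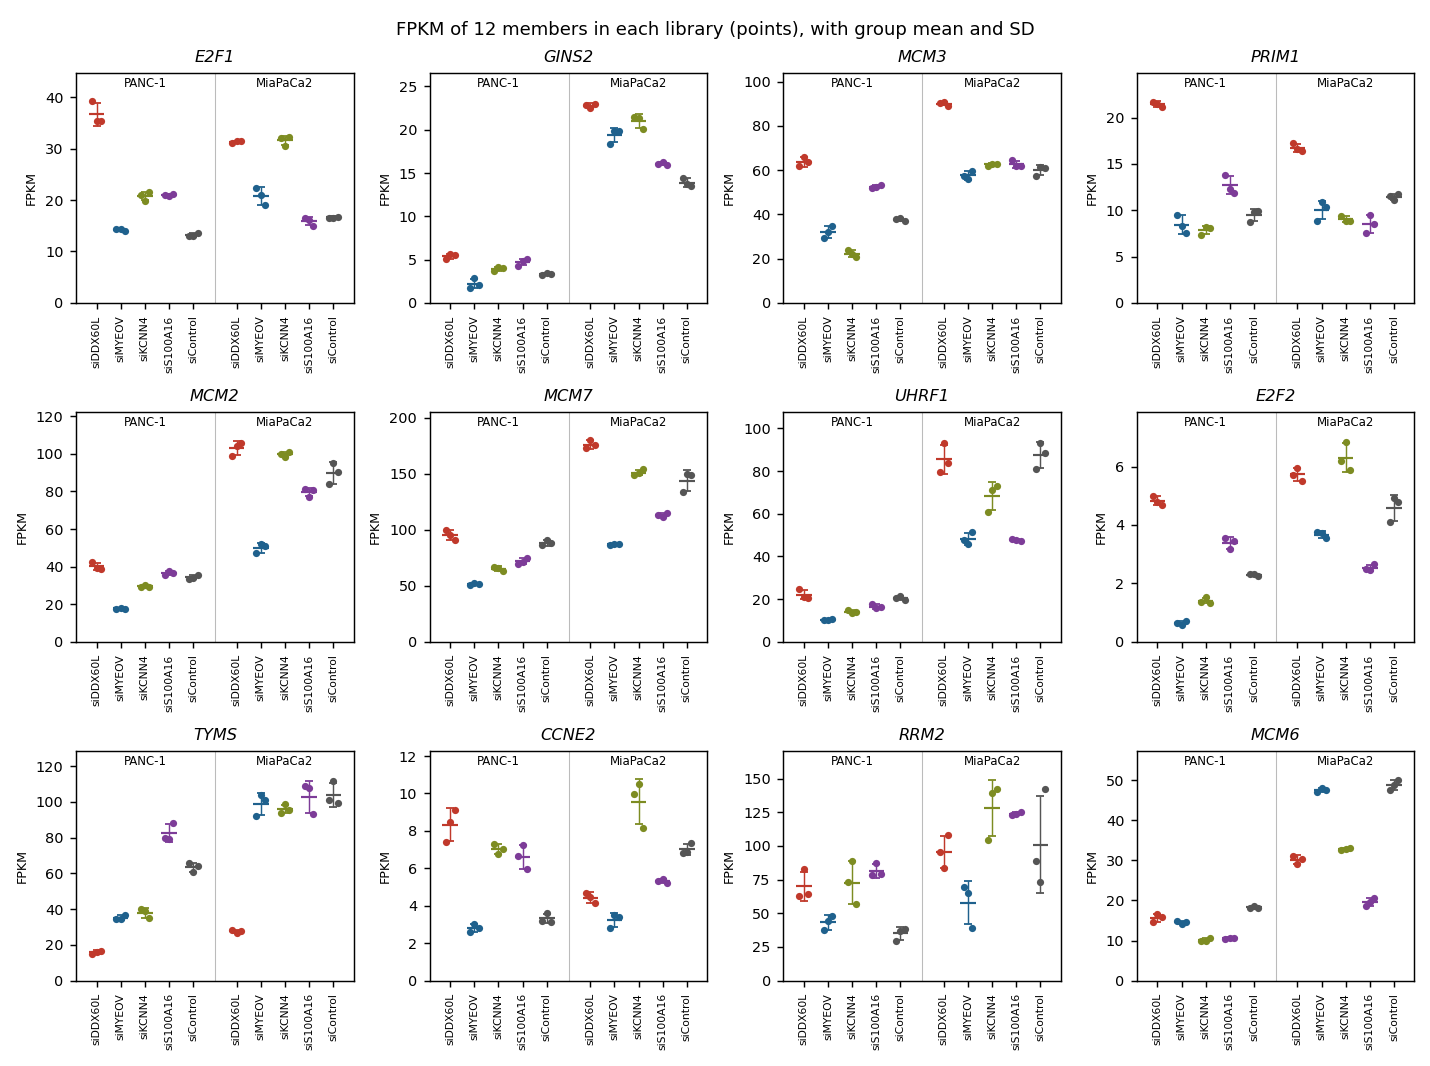
FPKM (y axis, from 0) of 12 members in each library (points), with the group mean (line) and SD (bar), for the 5 siRNA groups of PANC-1 (left part of each panel) and MiaPaCa2 (right part). E2F1 was highest after siDDX60L in PANC-1 at 35.3 to 39.3 FPKM, TYMS was lowest after siDDX60L in both lines, and MCM2 was at 17.6 to 17.9 FPKM after siMYEOV in PANC-1, below all its siControl libraries.

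The effect of siDDX60L differed between the lines in 9 members, all with the larger value in PANC-1, beside 5.30% of 11084 genes tested in both lines that were higher and 4.68% that were lower when the effect in MiaPaCa2 was taken from that in PANC-1. By limma at an unadjusted p below 0.05, 3 members were lower. The differences were led by CCNE2 (1.67 ± 0.12, adjusted p = 1.1e-09), RRM2 (1.01 ± 0.30, adjusted p = 0.016) and PCNA (0.81 ± 0.072, adjusted p = 2.6e-08). E2F1 rose in both lines and by more in PANC-1 (0.53 ± 0.070). The effect of siMYEOV differed in 10 members, 3 with the larger value in PANC-1 and 7 with the lower one, beside 5.21% and 10.2%. Of all calls of that difference 33.9% were higher, or 48.9% with the median of ratios. GINS2 (−0.89 ± 0.11, adjusted p = 1.3e-06), CDT1 (−0.84 ± 0.11, adjusted p = 3.9e-06), TYMS (−0.75 ± 0.094, adjusted p = 1.6e-06) and E2F2 (−0.75 ± 0.085, adjusted p = 3.4e-07) were lower in PANC-1 than in MiaPaCa2 relative to siControl. RRM2 (1.09 ± 0.30, adjusted p = 0.0073) and CCNE2 (0.74 ± 0.12, adjusted p = 3.9e-05) led the other direction. The same test for the other siRNAs was added after values were seen. The effect of siS100A16 differed in 17 members, all with the larger value in PANC-1, beside 8.04% of genes tested that were higher and 3.80% that were lower, and in 11 with the median of ratios. By limma at an unadjusted p below 0.05, 1 member was lower. Of all calls of that difference 67.9% were higher, or 49.3% with the median of ratios. CCNE2 (1.16 ± 0.12, adjusted p = 1.3e-07), CCNE1 (1.08 ± 0.11, adjusted p = 6.3e-08) and E2F2 (1.07 ± 0.085, adjusted p = 2.1e-09) led. The effect of siKCNN4 differed in 10 members, 4 with the larger value in PANC-1 and 6 with the lower one, beside 4.53% and 10.7%. With the median of ratios, which moved the median of all genes by 0.11, these were 4 and 3, and 53.1% rather than 29.7% of all calls were higher.

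**Figure D3:**
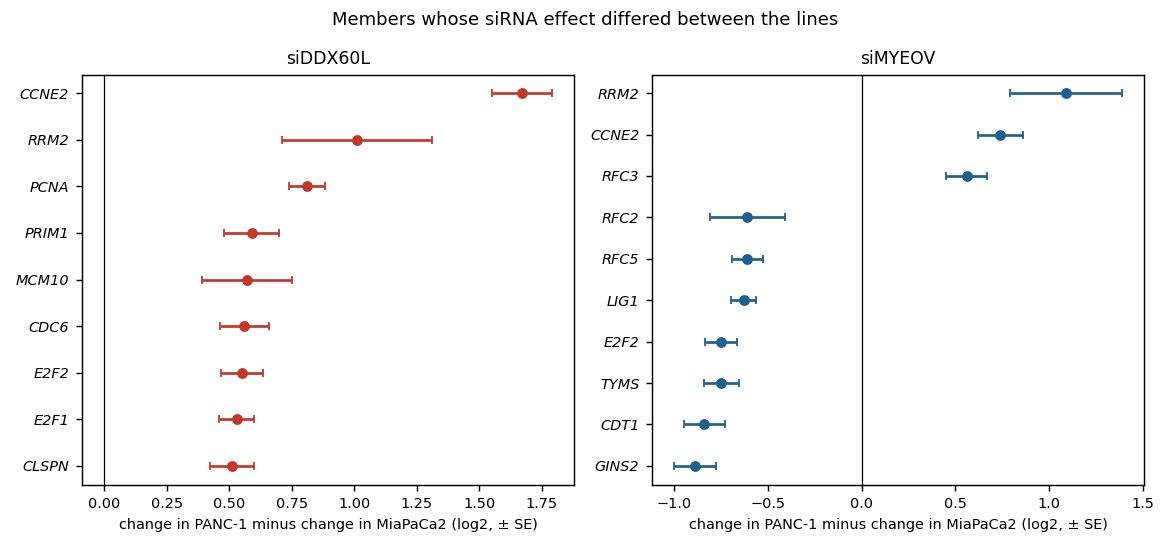
Change in PANC-1 minus change in MiaPaCa2 (x axis, log2, with SE as bars) after siDDX60L (left panel) and siMYEOV (right panel) for the members in which this difference was called. After siDDX60L all 9 lie to the right of 0, with CCNE2 at 1.67, and after siMYEOV 7 lie to the left and 3 to the right.

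Without a knockdown the members were lower in PANC-1 than in MiaPaCa2. Between the siControl groups 0 of the 45 were called higher and 30 were called lower in PANC-1, beside 25.9% and 23.2% of the 11084 genes tested, and the median was −0.76 beside 0.02. By limma at an unadjusted p below 0.05, 2 members were higher in PANC-1, POLA2 (0.42) and RPA2 (0.14). All 3 PANC-1 libraries lay below all 3 MiaPaCa2 libraries for 40 members and above them for 1. The same count over all genes tested was not made. The member furthest apart was POLA1, the catalytic subunit of polymerase alpha, at a mean of 2.93 FPKM in PANC-1 and 16 FPKM in MiaPaCa2 (−2.11 ± 0.063, adjusted p = 5.7e-19). On the log2 scale UHRF1 followed at 20.5 and 87.5 FPKM (−2.04 ± 0.074). E2F1, PRIM1 and RRM1 were among the 15 not called (−0.31, −0.25 and −0.11). Member means ran in PANC-1 siControl from 2.15 FPKM (GINS4) to 88.2 FPKM (MCM7) and in MiaPaCa2 siControl from 4.59 FPKM (E2F2) to 158 FPKM (PCNA).

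The 45 members were also summed in each library. In PANC-1 the members took 0.308 to 0.320% of all FPKM after siDDX60L, 0.192 to 0.203% after siMYEOV, 0.255 to 0.261% after siKCNN4, 0.297 to 0.313% after siS100A16, and 0.250 to 0.258% in siControl. In MiaPaCa2 they took 0.458 to 0.465% after siDDX60L, 0.356 to 0.361% after siMYEOV, 0.472 to 0.489% after siKCNN4, 0.380 to 0.398% after siS100A16, and 0.432 to 0.455% in siControl. siMYEOV was thus the lowest group in both lines without overlap, and siDDX60L lay above siControl in both. In MiaPaCa2 the 3 siControl libraries lay further apart than the distance of their mean from that of siDDX60L, and in PANC-1 siKCNN4 overlapped siControl. The median coefficient of variation of a member over the 3 libraries of a group was 3.74 to 6.18%.

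After siKCNN4 the shares of members called higher in either line and lower in PANC-1 were near those of all genes tested. In PANC-1 7 rose and 6 fell, beside 13.8% and 12.9% of genes tested, and the median was 0.09 beside 0.02. In MiaPaCa2 8 rose and 1 fell, beside 16.0% and 7.23%, with a median of 0.17 beside 0.09. The MiaPaCa2 counts depend on the scaling: with FPKM rescaled by the median of ratios, which moved the median of all genes by −0.13 there, 3 rose and 4 fell, and 45.7% rather than 68.9% of all calls were higher. CDC45, E2F1, GINS4 and RRM1 rose in both lines and MCM6 fell in both. E2F1 had 20.9, 19.9 and 21.6 FPKM after siKCNN4 and 13.1, 13.0 and 13.6 FPKM in siControl in PANC-1 (0.61 ± 0.047), and 32.1, 30.5 and 32.2 against 16.6, 16.6 and 16.8 FPKM in MiaPaCa2 (0.89 ± 0.055). CDC45 had 13.5, 14.5 and 14.1 FPKM after siKCNN4 in PANC-1 (0.84 ± 0.067) and 32.6, 33.7 and 31.5 FPKM in MiaPaCa2 (0.64 ± 0.099). MCM6 had 9.97, 9.99 and 10.7 FPKM after siKCNN4 in PANC-1 (−0.78 ± 0.051) and 32.5, 32.8 and 33.2 FPKM in MiaPaCa2 (−0.56 ± 0.044). E2F1 and CDC45 were above every siControl library of their line and MCM6 below. The other large calls in PANC-1 were RRM2 (1.02 ± 0.16), GINS4 (0.94 ± 0.13), GINS3 (0.90 ± 0.071) and CCNE2 (0.90 ± 0.082). In MiaPaCa2 they were RFC2 (0.92 ± 0.15), UNG (0.70 ± 0.050), GINS4 (0.61 ± 0.10) and RRM1 (0.60 ± 0.065), of which GINS4 and RRM1 lost the call with the median of ratios (0.48 and 0.45), as did CDC45 (0.50, just short).

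After siS100A16 the lines parted. In PANC-1 6 members rose and 2 fell, beside 16.5% and 8.94% of genes tested, with a median of 0.22 beside 0.09. Both shares of members in PANC-1 were thus below those of all genes tested. Of all calls there 64.8% were higher, or 46.8% with the median of ratios, which moved the median of all genes by −0.11. In MiaPaCa2 1 rose and 8 fell, beside 12.4% and 9.63%, with a median of −0.19 beside 0.04. MCM6 was the only member called in the same direction in both lines. It had 10.3, 10.7 and 10.7 FPKM after siS100A16 and 18, 18.7 and 18.1 FPKM in siControl in PANC-1 (−0.74 ± 0.051), and 18.5, 19.6 and 20.7 against 47.5, 48.8 and 50.1 FPKM in MiaPaCa2 (−1.27 ± 0.044, adjusted p = 3.2e-10). MCM6 thus fell in 5 of the 8 comparisons of an siRNA with siControl, which share the siControl libraries of their line. In PANC-1 RRM2 had 78.4, 87.4 and 78.9 FPKM after siS100A16 and 29.7, 36.9 and 38.6 FPKM in siControl (1.2 ± 0.16, adjusted p = 3e-05), followed by UNG (0.89 ± 0.046), CCNE2 (0.82 ± 0.082), RFC3 (0.75 ± 0.072) and E2F1 (0.62 ± 0.047). In MiaPaCa2 UHRF1 had 48.1, 47.6 and 47.4 FPKM after siS100A16 and 80.9, 93.2 and 88.5 FPKM in siControl (−0.86 ± 0.077, adjusted p = 1.1e-06), followed by TK1 (−0.74 ± 0.064), POLD1 (−0.74 ± 0.064) and CCNE1 (−0.69 ± 0.062), while RFC2 rose (0.71 ± 0.15). UHRF1 after siS100A16 was therefore at about the level it had after siMYEOV in that line.

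**Figure D4:**
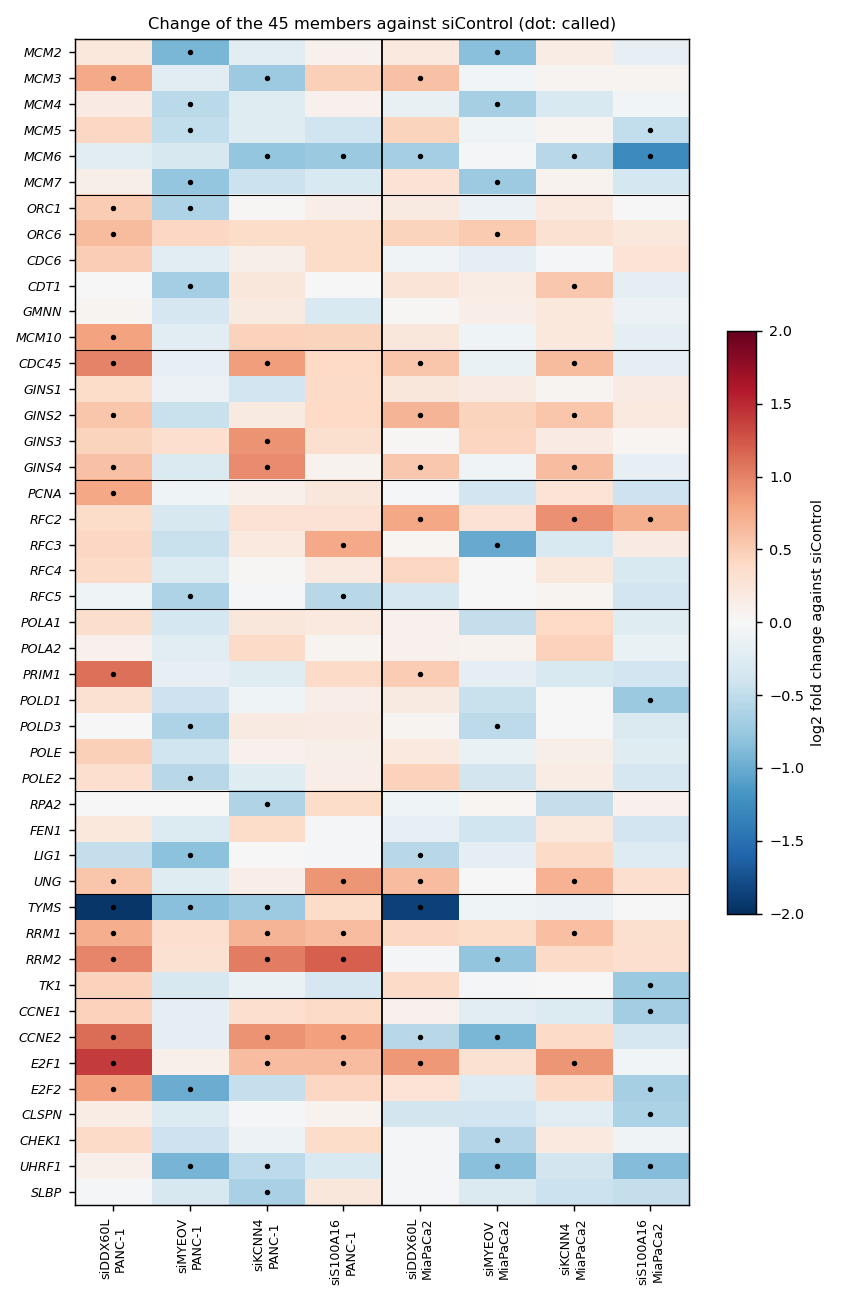
Log2 fold change against siControl (colour, −2 to 2) of the 45 members (rows, by role) after the 4 siRNAs in PANC-1 (left columns) and MiaPaCa2 (right columns), with a dot where the change was called. MCM6 is blue with a dot in 5 of 8 columns, and the helicase partner CDC45 and E2F1 are red with a dot after siDDX60L and siKCNN4 in both lines.

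Over the 4 siRNAs and both lines, 8 members were never called: CDC6, FEN1, GINS1, GMNN, POLA1, POLA2, POLE and RFC4. Of 80 other genes of the pathway, 77 were tested in PANC-1 and 76 in MiaPaCa2. After siDDX60L 17 rose and 7 fell in PANC-1, beside 10.2% and 7.34% of all genes tested. In MiaPaCa2 4 rose and 8 fell, beside 8.77% and 7.28%. Their median log2 fold change after siDDX60L was 0.23 in PANC-1, beside 0.07 over all genes, and −0.03 in MiaPaCa2, beside 0.05. After siMYEOV 4 rose and 15 fell in PANC-1, beside 14.3% and 15.1%, with a median of −0.2 beside 0.04. In MiaPaCa2 5 rose and 13 fell after siMYEOV, beside 16.3% and 10.4%, with a median of −0.08 beside 0.11. After siDDX60L the large calls in PANC-1 included CDKN1C, a CDK inhibitor (−1.1), the repair gene BRCA1 (1.04) and RBL1, a relative of the retinoblastoma protein (0.85). In MiaPaCa2 they were CDKN1A, the CDK inhibitor p21 (−2.26), E2F5 (−0.95), DCK, deoxycytidine kinase (−0.94), and the histone chaperone NASP (0.83). After siMYEOV CCND1, cyclin D1, CDKN1A and DUT, which breaks down dUTP, were among the largest calls in both lines (−1.23, −1.16 and −1.14 in PANC-1; −1.94, −2.25 and −1.1 in MiaPaCa2), joined by the helicase HELLS in PANC-1 (−0.82) and E2F5 in MiaPaCa2 (−0.99). The genes that fell after siMYEOV thus included both cyclin D1, which drives the G1/S transition, and p21, which holds it back. Neither fall was particular to siMYEOV. CDKN1A also fell after siDDX60L and after siS100A16 in both lines (−0.78 and −0.84 in PANC-1) and after siKCNN4 in MiaPaCa2 (−0.86). It was not called after siKCNN4 in PANC-1. CCND1 also fell after siDDX60L (−0.79) and siS100A16 (−0.53) in PANC-1, and was not called after them in MiaPaCa2. Comparisons within a line share its siControl libraries. After siKCNN4 CCND1 fell in both lines (−1.23 and −1.65), and after siS100A16 CDC25A, the phosphatase that activates cyclin E kinase, rose in PANC-1 (1.42) and CDKN1A fell in MiaPaCa2 (−1.43).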

How the data were processed

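RNA-seq was done by the authors on 30 libraries of PANC-1 and MiaPaCa2 cells. The deposited table holds FPKM, normalized by the authors to gene length and mapped reads, for 24895 entries; per the submitters' processing notes reads were mapped with TopHat2 2.0.12, and GRCh37 is the build named. The methods name Ensembl annotation of that build. They also name a stranded library kit, while the labels name a TruSeq RNA kit; which program computed FPKM and whether it used the strand is not given in the sources used here. An approximate read number is stated for these cells in the paper's text, and depth per library was not recovered: the values did not give whole reads, so no count test was run, and FPKM of a library summed to 375091 to 416201.

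Groups were taken from the labels. Values were tested as log2(FPKM + 1) with limma 3.58.1 in R 4.3.3 with a mean-variance trend, in each line over its 15 libraries and for line differences over all 30, on genes averaging 1 FPKM or more, with Benjamini-Hochberg adjustment over all genes tested. The pseudocount shrinks the fold changes of low genes. The scripts were tested on simulated data. The 45 members and the other lists were chosen with earlier results of these data known. Values by library are given for members called in both lines after siDDX60L or after siMYEOV, called in opposite directions after these in a line, or among the 6 largest calls of a comparison; for siKCNN4 and siS100A16 up to 6 calls each and for other pathway genes up to 4 are named. MCM5, MCM10 and others outside this rule are named with single values to account for every member. Alternatives were a pseudocount of 0.1, no filter, rescaling by the median of ratios, no trend, the replicate number as a block, and leaving out each library.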

Additional observations from a re-analysis of the deposited data

Results flagged for a closer look

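The following members are given because the effect of an siRNA differed between the lines by a test of the difference itself (limma, PANC-1 effect less MiaPaCa2 effect, log2 scale). After siDDX60L the differences were 1.67 for CCNE2, 1.01 for RRM2, 0.81 for PCNA, 0.59 for PRIM1, 0.57 for MCM10, 0.56 for CDC6, 0.55 for E2F2, 0.53 for E2F1 and 0.51 for CLSPN. CDC6 and CLSPN were not called against siControl in either line. After siMYEOV they were −0.89 for GINS2, −0.84 for CDT1, −0.75 for TYMS, −0.75 for E2F2, −0.63 for LIG1, −0.61 for RFC2 and −0.61 for RFC5, and 1.09 for RRM2, 0.74 for CCNE2 and 0.56 for RFC3. After siS100A16 they were 1.16 for CCNE2, 1.08 for CCNE1, 1.07 for E2F2, 0.89 for POLD1, 0.86 for RRM2, 0.77 for PRIM1, 0.71 for CLSPN, 0.69 for SLBP, 0.69 for E2F1, 0.64 for MCM10, 0.63 for PCNA, 0.58 for CDC45, 0.58 for RFC3, 0.56 for UHRF1, 0.56 for UNG, 0.54 for MCM6 and 0.50 for RFC4. After siKCNN4 they were −0.84 for E2F2, −0.79 for MCM3, −0.63 for RFC2, −0.61 for TYMS, −0.56 for UNG and −0.50 for MCM7, and 0.74 for GINS3, 0.61 for CCNE1, 0.51 for CCNE2 and 0.50 for RFC3. In RRM2 the values of MiaPaCa2 siControl spread from 73.1 to 142 FPKM (coefficient of variation 35.9%), and the part of that spread in these RRM2 differences was not tested.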

How the results depend on the processing

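Of 90 calls of a member against siControl, 71 held under every alternative run, 19 were lost under at least 1 and none changed sign; 11 were lost on leaving out a library. No filter, no trend and a pseudocount of 0.1 ended none of the 90. With the median of ratios the members called higher were 5 after siDDX60L, 0 after siMYEOV and 3 after siKCNN4 in MiaPaCa2, where 4 were called lower after siKCNN4, and 2 were called lower after siDDX60L in PANC-1, as with a pseudocount of 0.1. On leaving out each library, the members called higher were 0 to 1 after siMYEOV and 1 to 2 after siS100A16 in MiaPaCa2 and 0 to 1 after siMYEOV in PANC-1, and those called lower were 1 to 2 after siKCNN4 in MiaPaCa2 and 1 to 2 after siDDX60L in PANC-1. Beside the calls named above, UHRF1 after siKCNN4 in PANC-1 was −0.50 without siControl replicate 2 and −0.49 without siKCNN4 replicate 2, and MCM5 after siS100A16 in MiaPaCa2 was −0.47 to −0.49 without siControl replicate 2, siControl replicate 3 or siS100A16 replicate 2. The siS100A16 effect differed between the lines in 11 members with the median of ratios, against 17 without it. The cause was not tested.

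With the replicate block 15 members rose after siDDX60L and 13 fell after siMYEOV in PANC-1, and no call of a member changed. Whether the numbers pair the samples is not known: 6 of 15 libraries in PANC-1 and 5 of 15 in MiaPaCa2 lay closest to a library of their own number. In PANC-1 the correlation of deviations from the group means was above 0.1 in 4 of 30 same-number pairs and 4 of 60 others. Those 4 same-number pairs were all between libraries numbered 1. In MiaPaCa2 it was above 0.1 in 0 pairs. A shared batch was not tested. The study states only an approximate read number over these cells and the values hold no counts, so how far counting error limits the members near 1 FPKM, such as E2F2 in PANC-1, cannot be given.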
